A study of Mus musculus with 17 samples.

Results

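The cerebellins and their synaptic partners were followed in mouse sympathetic ganglia carrying an activated Alk receptor. The group holds 7 genes, Cbln1, Cbln2, Cbln3, Cbln4, Nrxn2, Nrxn3 and Grid1, found by gene symbol among 17306 probe sets, of which 16464 carried 1 symbol. The group was chosen by measured values, since Cbln2 was already known to differ most between mutant and Wt ganglia at birth in these arrays. The P0 differences between genotypes are therefore a description with no test for the 7 genes, and tests are given only for P18 Het against Wt and, for genes other than Cbln2, for the comparisons of stages.

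Expression was measured on Affymetrix mouse genome arrays in pooled superior cervical and stellate ganglia of C57BL/6 mice. KI mice carried the F1178L mutation of Alk, which encodes a receptor tyrosine kinase active while sympathetic neurons develop, on 1 allele (Het) or on both alleles (Hom), and Wt mice carried none. Newborn (P0) ganglia gave 4 Wt, 4 Het and 4 Hom arrays, and ganglia taken 18 days after birth (P18) gave 3 Wt and 2 Het arrays. Older Hom mice were not analysed here. The mutation is present in every cell of the animal, in an allele whose mutated exon is flanked by lox sites, so no difference is restricted to neurons by design. The labels do not say whether each array is a separate animal, so the p-values reflect only how far samples spread, which may be technical, and they name no batch, so stage and any batch cannot be told apart.

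Cerebellins are secreted proteins of the C1q family that organise synapses. They bind neurexins on the presynaptic membrane and delta glutamate receptors, such as GluD1, encoded by Grid1, on the postsynaptic membrane, and so bridge both sides of the synaptic cleft. The best known example is Cbln1 at the synapses between parallel fibres and Purkinje cells of the cerebellum. Sympathetic neurons receive cholinergic synapses from preganglionic axons of the spinal cord.

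The tissue label and the quality of the arrays were checked first. All 12 measured genes of a list of 14 sympathetic neuron markers, among them Th and Dbh, which encode enzymes of noradrenaline synthesis, exceeded a log2 value of 4 in each of the 17 arrays. Correlations between arrays of 1 group ranged from 0.977 to 0.997, with the lowest among P0 Hom. Alk itself lay between 8.31 and 8.60 in P0 Wt, between 9.06 and 9.23 in P0 Het and between 9.17 and 9.63 in P0 Hom ganglia, and a point mutation need not alter its transcript level. A gene was kept for testing if its log2 value exceeded 4, a level near background, in at least 2 arrays, which 9973 probe sets did.

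Of the 7 genes, 4 were kept, namely Cbln1, Cbln2, Nrxn2 and Nrxn3. Cbln3, Cbln4 and Grid1 exceeded log2 4 in 0 of 17 arrays, so no difference is given for them. Group means of Cbln2 ran from 2.92 to 10.76, the widest range among the 7.

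**Figure D1:**
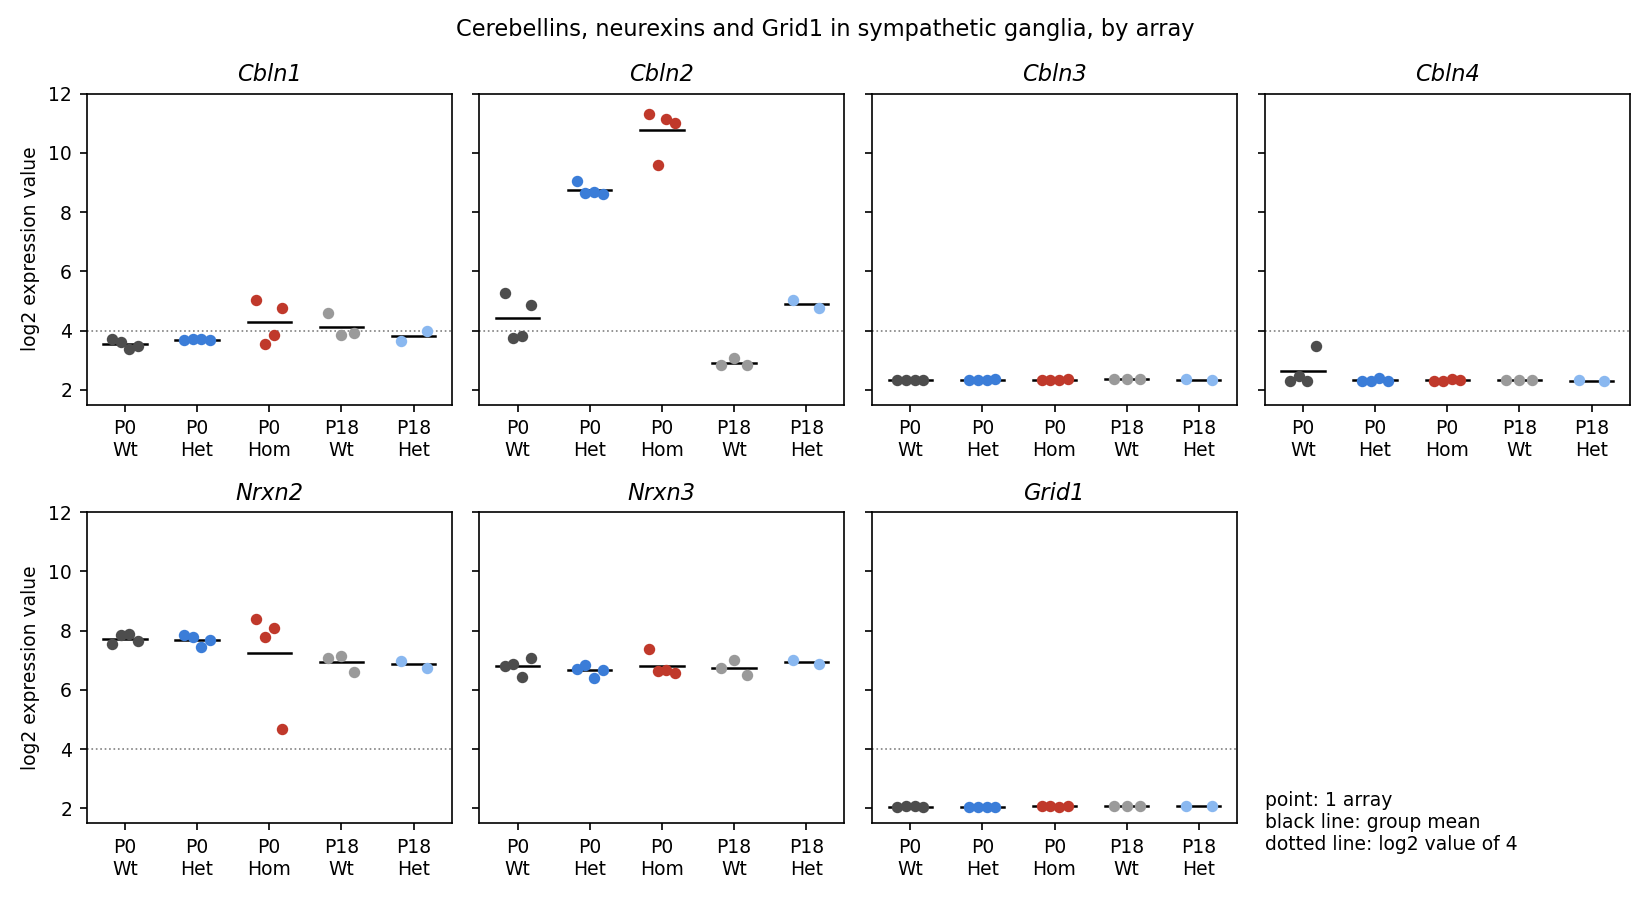
Log2 expression value (y axis) of each of the 7 genes in the 5 groups (x axis), with 1 point for each array, a black line at each group mean and a dotted line at a log2 value of 4. Cbln2 lies at 3.75 to 5.27 in P0 Wt, 8.59 to 9.06 in P0 Het and 9.59 to 11.30 in P0 Hom arrays, while Cbln3, Cbln4 and Grid1 stay under the dotted line in each array.

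Among the ligands, Cbln2 was low in Wt ganglia at birth and high in both mutant genotypes. In the P0 Wt arrays numbered 1 to 4 it read 5.27, 3.75, 3.81 and 4.85. In the P0 Het arrays 5 to 8 it read 9.06, 8.63, 8.66 and 8.59, and in the P0 Hom arrays 9 to 12 it read 11.30, 9.59, 11.15 and 11.01. All Het arrays lay above all Wt arrays and all Hom arrays above all Het arrays, with the least distance between P0 Hom 10 and P0 Het 5. Wt averaged 4.42 ± 0.76, Het 8.74 ± 0.22 and Hom 10.76 ± 0.79 (SD, n = 4 for each).

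Cbln2 was higher by 4.31 ± 0.36 in Het than in Wt ganglia at P0 on the log2 scale (SE of the limma fit), a 19.9-fold difference. It was higher by 6.34 ± 0.36 in Hom than in Wt (81.2-fold) and by 2.03 ± 0.36 in Hom than in Het (4.08-fold). These were the highest differences of all 9973 genes kept for Het and for Hom against Wt, and the 31st highest for Hom against Het, which describes how the gene was chosen. Since 2 of the 4 Wt arrays lay under log2 4, the folds against Wt are inexact in size. In whole ganglia, fewer cells of a type and less RNA per cell cannot be told apart.

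Of the 4 genes kept, Cbln2 alone had all Het arrays above all Wt arrays at P0, as 9% of all genes kept had. Cbln2 alone had all Hom arrays above all Wt arrays, as 5.63% of all genes had, and alone was ordered Wt, Het and Hom without overlap, as 0.632% of all genes were. Nothing is read from these counts, because the same contrasts singled out Cbln2.

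Transcripts of other cells differed between the same arrays. A list of 15 sensory neuron genes, 9 of them measured, had a summed level of log2 10.65 in P0 Wt 1 and 10.65 in P0 Wt 4, against 7.16 in Wt 2, 6.78 in Wt 3, 6.25 to 6.50 in Het and 6.53 to 7.23 in Hom arrays. Pou4f1, which encodes a transcription factor of sensory neurons, read 5.94 in Wt 1 and 5.40 in Wt 4 and 2.51 to 2.62 in the other 10 P0 arrays. The same Wt 1 and Wt 4 held the higher values of Cbln2 within Wt. Without both arrays Cbln2 was higher by 4.96 in Het and by 6.98 in Hom than in Wt, a widening that follows from leaving out the highest Wt values. The part of these transcripts in the Wt level of Cbln2 was not tested.

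**Figure D2:**
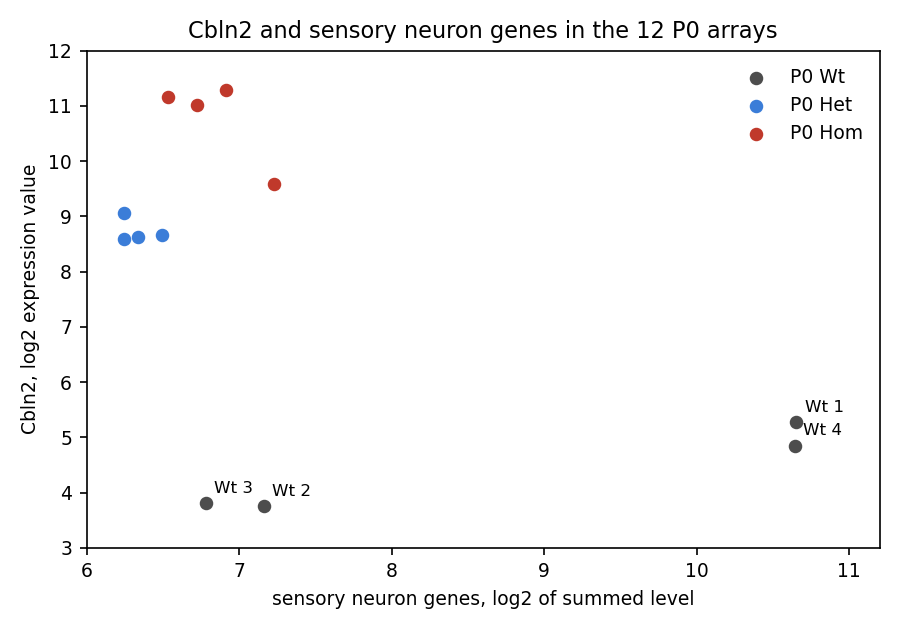
Log2 value of Cbln2 (y axis) against the log2 of the summed level of 9 sensory neuron genes (x axis) in the 12 P0 arrays, with 1 point for each array, coloured by genotype, and the Wt arrays numbered. P0 Wt 1 and Wt 4 stand apart to the right at 10.65 with Cbln2 at 5.27 and 4.85, under all Het and Hom arrays.

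Other marker lists moved with genotype too. The summed sympathetic list lay between 15.19 and 15.396 in P0 Wt, between 15.32 and 15.38 in Het and between 14.79 and 15.14 in Hom arrays, so the Hom arrays, with the highest Cbln2, were the lowest for it. A list of 9 fat genes, 7 of them measured, lay between 12.51 and 13.63 in Wt, between 10.51 and 12.33 in Het and between 11.26 and 14.62 in Hom arrays, with the highest value in Hom 10. Lists of glial genes (13.67 to 14.60 in Wt, 13.63 to 13.86 in Het, 13.40 to 14.19 in Hom) and of skeletal muscle genes (7.20 to 15.11 in Wt, 7.72 to 12.80 in Het, 9.80 to 12.20 in Hom) overlapped between genotypes, as did those of fibroblasts (14.67 to 15.46, 14.47 to 14.68, 13.98 to 15.05), macrophages (8.95 to 10.10, 8.54 to 8.96, 8.66 to 8.98) in Wt, Het and Hom, and of endothelium. Single genes of these lists differed, where limma called 3.11% of all genes in Het and 8.5% in Hom against Wt. Of 8 glial genes, 2 were lower in Het and 2 in Hom than in Wt (list medians −0.92 and −0.59). Of 6 macrophage genes, 1 was lower in each (−0.61 and −0.59), and of 9 fibroblast genes 1 was lower in Het. Of 12 sympathetic genes, 1 was higher in Het and 3 were lower in Hom, and 1 of 7 endothelial genes was higher in Hom. No fat or skeletal muscle gene was called. The part of these lists in the values of the members and partner genes was not tested.

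P0 Hom 10, the lowest Hom array for Cbln2, was also the lowest Hom array for Ret, which encodes a receptor tyrosine kinase of sympathetic neuroblasts, and for Alk. Ret read 10.31 there and 11.44 to 11.50 in the other Hom arrays, and Alk read 9.17 there and 9.46 to 9.63 in the others. Without Hom 10, Cbln2 was higher by 6.73 in Hom than in Wt.

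At P18 the question was whether the Het difference of Cbln2 persisted. Cbln2 read 2.83, 3.08 and 2.84 in the P18 Wt arrays 1 to 3, all near background, and 5.03 and 4.77 in the P18 Het arrays 4 and 5. Both Het arrays lay above all Wt arrays, as in 15.9% of all genes kept. The means were 2.92 ± 0.14 in Wt (SD, n = 3) and 4.90 ± 0.18 in Het ganglia (SD, n = 2).

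The difference of 1.99 ± 0.46 (SE, 95% interval 0.997 to 2.97, 3.96-fold) did not pass the test across all genes (limma adjusted p = 0.119). It was the 7th highest of 9973 differences, and the unadjusted limma p was 0.00063. Over the alternatives the adjusted p ranged from 0.00079 to 0.781, and it passed with array weights (0.00079) and when the P18 arrays were fitted alone (0.038). Since all Wt arrays lay under log2 4, the fold is inexact in size. The summed sympathetic list lay between 16.02 and 16.10 in P18 Wt and between 15.92 and 16.01 in P18 Het arrays, and the sensory list between 11.76 and 12.15 in Wt and between 12.14 and 12.16 in Het. Only 2 sensory genes exceeded log2 4 at P18, Avil at 11.73 to 12.14 and Scn11a at 4.02 to 4.96, while Pou4f1 stayed between 2.56 and 2.60. The part of both lists in the P18 difference was not tested.

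Cbln2 was lower at P18 than at P0 in both genotypes, by −1.51 ± 0.39 in Wt and by −3.83 ± 0.44 in Het ganglia (SE). All P18 arrays lay under all P0 arrays of the same genotype. These are descriptions, since they hold the P0 arrays that singled out the gene. The Het difference at P18 minus that at P0 was −2.33 ± 0.59. Without P0 Wt 1 and Wt 4 the stage difference in Wt was −0.86. From low to high the groups ran P18 Wt, P0 Wt, P18 Het, P0 Het and P0 Hom, and only P0 Wt (3.75 to 5.27) and P18 Het (4.77 to 5.03) overlapped among neighbours in that order.

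**Figure D3:**
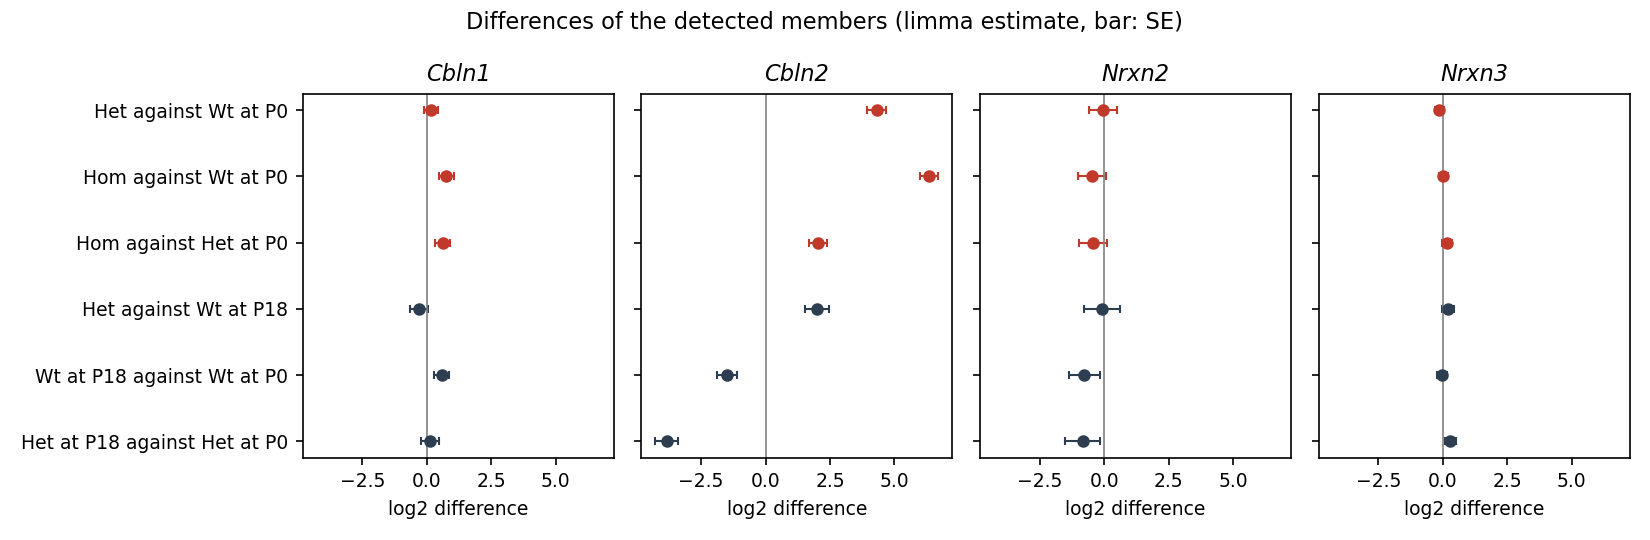
Log2 difference (x axis) of the 4 genes kept in 6 comparisons (y axis), as the limma estimate with its SE as a bar, P0 comparisons of genotypes in red and the others in dark blue. Cbln2 differs by 4.31, 6.34 and 2.03 at P0 and by 1.99 at P18, while Nrxn3 stays within 0.29 of 0 in each comparison.

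Cbln1, the founding member of the family, stayed close to background. In P0 Wt it read 3.71, 3.62, 3.36 and 3.48 and in P0 Het 3.67, 3.72, 3.70 and 3.68. In P0 Hom it read 5.03, 3.55, 3.86 and 4.77. At P18 it read 4.60, 3.84 and 3.92 in Wt and 3.65 and 3.99 in Het arrays. It exceeded log2 4 in only 3 arrays, Hom 9, Hom 12 and P18 Wt 1, and passed the filter through them, and Hom arrays overlapped with Wt and with Het.

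Cbln1 differed by 0.15 ± 0.27 in Het and by 0.76 ± 0.27 in Hom from Wt at P0 (SE). Het and Wt overlapped at P18, with a difference of −0.30 ± 0.35 (95% interval −1.05 to 0.45, limma adjusted p = 0.985). Between stages it differed by 0.58 ± 0.30 in Wt (limma adjusted p = 0.108) and by 0.12 ± 0.33 in Het ganglia (limma adjusted p = 0.798). Only 1 of the 7 Wt arrays and no Het array exceeded log2 4, so neither an order nor a change is read from these values. The highest P18 Wt array, replicate 1, was also the P18 array with the most muscle transcript, with a summed muscle list of 10.50 against 6.40 to 6.55 in the others, and the part of that in Cbln1 was not tested.

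Cbln3, which encodes a cerebellin of cerebellar granule cells, lay between 2.32 and 2.37 in all 17 arrays. Cbln4, which encodes a cerebellin that binds neurexins and also the netrin receptor DCC, read 3.47 in P0 Wt 4, 2.46 in P0 Wt 2 and 2.29 to 2.41 in the other 15 arrays. The highest of these, P0 Wt 4, was 1 of the 2 P0 arrays in which Pou4f1 exceeded log2 4. Both genes stayed under log2 4, where order among values carries no level.

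Among the receptors, Nrxn2 was detected in each group, and its arrays overlapped between genotypes. Its P0 values were 7.54, 7.86, 7.87 and 7.63 in Wt and 7.84, 7.78, 7.44 and 7.70 in Het. In Hom they were 8.41, 7.79, 8.09 and 4.69, so that Hom 12 stood far under the other 3. Het differed from Wt by −0.04 ± 0.55 and Hom by −0.48 ± 0.55 (SE). The Hom difference took the opposite sign without Hom 12 (0.37 ± 0.17) and with array weights (0.30 ± 0.33). Without Hom 12, Hom was also higher than Het by 0.41 ± 0.17, so no direction is read for Hom.

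The genes picked for their likeness to Nrxn2 were also low in Hom 12, an array that weighs heavily in that choice. The 3 genes whose values over the 17 arrays were most like Nrxn2 were Ktn1, Prr3 and Hps4 (Pearson r = 0.936, 0.935 and 0.917). Prr3 read 2.59 in Hom 12 and 6.59 to 7.61 in the other arrays, Ktn1 read 9.05 against 10.09 to 10.68, and Hps4 read 6.47 against 7.64 to 8.51. Without Hom 12 the coefficients were 0.789 for Ktn1, 0.902 for Prr3 and 0.737 for Hps4. Hom 12 also had the highest median log2 value of all arrays, 4.68 against 4.41 to 4.60, and its part in the low values was not tested.

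At P18 Nrxn2 read 7.09, 7.16 and 6.59 in Wt and 6.97 and 6.75 in Het arrays. The genotypes overlapped, with a difference of −0.09 ± 0.72 (SE, 95% interval −1.61 to 1.44, limma adjusted p = 0.99976). The interval is wide because the spread of all groups, Hom 12 included, enters the fit. All P18 arrays lay under all P0 arrays of the same genotype, by −0.78 ± 0.60 in Wt (limma adjusted p = 0.285) and by −0.83 ± 0.68 in Het ganglia (limma adjusted p = 0.342), and neither passed the test. Fitted on the compared arrays alone, both passed, with an SE of 0.17 in Wt (adjusted p = 0.0055) and of 0.13 in Het (adjusted p = 0.0011), and without P0 Wt 3 and Hom 12 the Wt difference was −0.73 ± 0.18 (adjusted p = 0.0028). Over the alternatives the adjusted p ranged from 0.0028 to 0.504 in Wt and from 0.0011 to 0.597 in Het.

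Nrxn3 was level over genotypes and stages. It read 6.81, 6.89, 6.42 and 7.06 in P0 Wt, 6.72, 6.85, 6.40 and 6.68 in P0 Het and 7.38, 6.65, 6.67 and 6.57 in P0 Hom arrays. It read 6.74, 6.996 and 6.51 in P18 Wt and 7.02 and 6.88 in P18 Het arrays. The genotypes overlapped at both stages.

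Nrxn3 differed by −0.14 ± 0.18 in Het and by 0.02 ± 0.18 in Hom from Wt at P0, and by 0.20 ± 0.24 in Het from Wt at P18 (95% interval −0.30 to 0.71, limma adjusted p = 0.989). Between stages it differed by −0.05 ± 0.20 in Wt (95% interval −0.47 to 0.38, limma adjusted p = 0.858) and by 0.29 ± 0.23 in Het (95% interval −0.19 to 0.77, limma adjusted p = 0.316), where both P18 arrays lay above the 4 P0 arrays. The Wt difference changed sign to 0.05 when each array was centred on its median.

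Among the delta receptors, Grid1 lay between 2.04 and 2.08 in all 17 arrays, so no transcript was detectable above background by this probe set in any group. The detected members were thus ligands and neurexins.

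In the tests, 0 of 4 members passed for Het against Wt at P18, where limma called 26 genes, or 0.261% of all. Cbln2 was the only member with an unadjusted p under 0.05, by limma and by the methods' t-test, and the methods' t-test called 0 members after Benjamini-Hochberg adjustment. Of 3 members tested between stages, 0 passed in Wt, where 54.9% of all genes were called, and 0 passed in Het ganglia, where 47.8% were called. No member had an unadjusted limma p under 0.05 in either stage comparison, and the methods' t-test called 1 member, Nrxn2, in each after Benjamini-Hochberg adjustment. Counting Cbln2, arrays did not overlap between stages for 3 of 4 members in Wt and 3 of 4 in Het, against 57.7% and 72.6% of all genes. The count in Wt includes Cbln1, which lay under log2 4 in all Wt arrays but 1.

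Other genes of trans-synaptic adhesion were set beside the members, in 5 lists of 86 genes, of which 82 were measured and 60 kept. They were other neurexin ligands, C1q-like relatives and receptors of C1q-type proteins, intracellular partners of neurexins and delta receptors, splicing factors of the neurexins, and other synaptic adhesion organisers. The lists were chosen with earlier results of these data known, so their shares of called genes are a description. At P0, 4 of the 60 rose and 1 fell in Het ganglia (8.33%, where limma called 3.11% of all genes). Without P0 Het 5, Het 7 or Het 8 in turn 1 rose, and without P0 Wt 2, 2 rose. In Hom ganglia 18 rose and 4 fell (36.7%, where 8.5% of all genes were called), and the median difference was 0.41 against 0.01 over all genes. Fitted on the compared arrays alone, 10 rose and 2 fell in Hom ganglia. Of those that rose, 2 of 4 in Het and 6 of 18 in Hom had a Wt mean under log2 4, so that they passed the filter through other groups and their sizes are inexact. Among the 18, Khdrbs2 and Tenm1 were kept only through the Hom arrays. Nxph1 and Slitrk6, which rose in both mutant genotypes, were kept only through the P0 Het and Hom arrays.

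**Figure D4:**
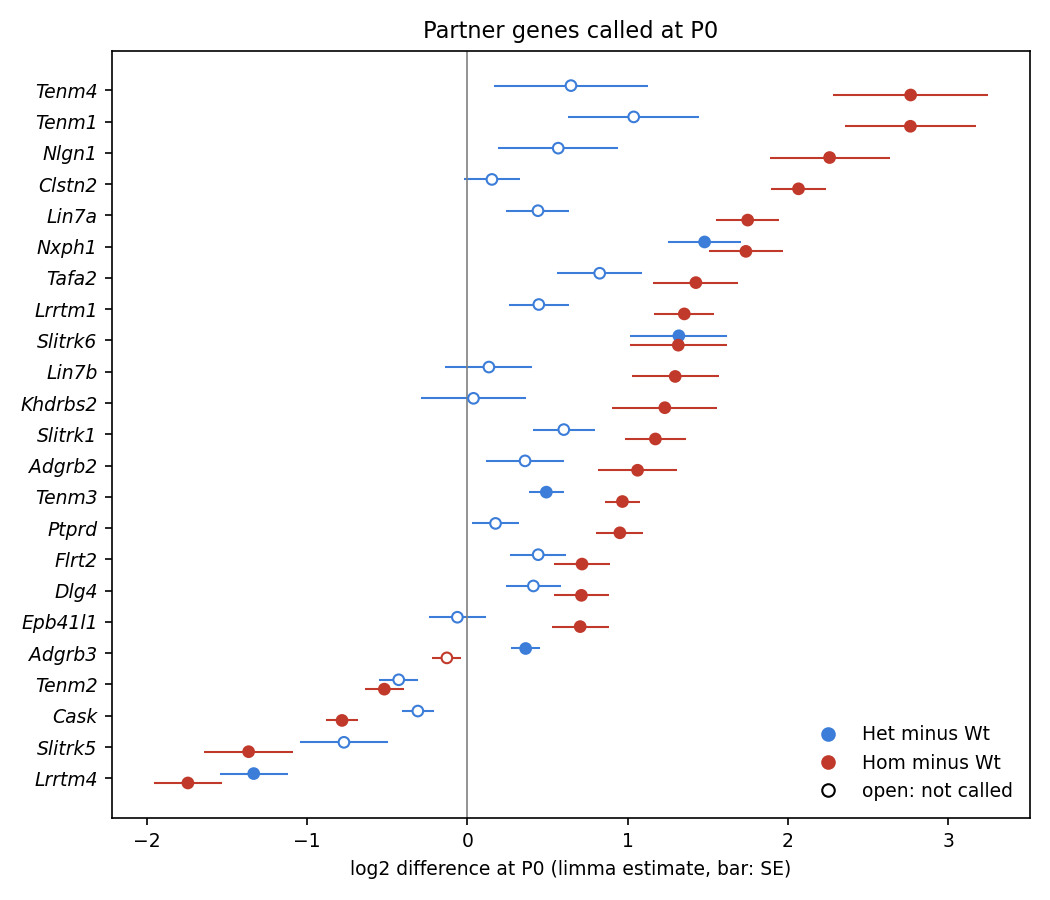
Log2 difference from Wt at P0 (x axis, limma estimate, bar for its SE) of the partner genes called in Het or Hom ganglia (y axis), Het in blue and Hom in red, filled where called and open where not. Hom differences run from −1.74 for Lrrtm4 to 2.77 for Tenm4, and the Het differences of Tenm4, Tenm1, Nlgn1, Clstn2 and Lin7a are open. Filled points of Khdrbs2, Tenm1, Nxph1 and Slitrk6 carry no weight, since these genes were kept only through mutant arrays.

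Of 14 other neurexin ligands kept, 5 rose and 1 fell in Hom ganglia and 1 rose and 1 fell in Het ganglia at P0. Nlgn1, which encodes a neuroligin, a postsynaptic receptor of neurexins, rose in Hom by 2.26 ± 0.38 (SE, limma adjusted p = 0.00092). It read 5.21, 5.98, 5.44 and 4.80 in Wt and 8.58, 6.42, 8.07 and 7.39 in Hom arrays. Clstn2, which encodes a calsyntenin, rose by 2.07 ± 0.17 (limma adjusted p = 1.4e-06), from 3.25 to 3.51 in Wt to 4.86 to 5.87 in Hom arrays, while Het arrays, at 3.49 to 3.59, overlapped with Wt.

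Nxph1, which encodes neurexophilin 1, a secreted neurexin ligand, rose in both mutant genotypes, by 1.48 ± 0.23 in Het (limma adjusted p = 0.0023) and by 1.74 ± 0.23 in Hom (limma adjusted p = 0.00012). It read 2.94 to 3.37 in Wt, 4.17 to 5.31 in Het and 4.54 to 5.21 in Hom arrays, so Het and Hom overlapped. It exceeded log2 4 only in these mutant arrays, through which alone it was kept, so its calls carry no weight and its sizes are inexact. Lrrtm4, a leucine-rich repeat neurexin ligand, moved the other way, by −1.33 ± 0.21 in Het (limma adjusted p = 0.0030) and by −1.74 ± 0.21 in Hom (limma adjusted p = 5.7e-05). It read 6.38 to 7.15 in Wt, 5.35 to 5.60 in Het and 4.61 to 5.67 in Hom arrays.

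Of 5 receptors and relatives of C1q-type proteins kept, 1 rose in each mutant genotype at P0. Adgrb3, which encodes a receptor of the C1q-like proteins, rose by 0.36 ± 0.09 in Het ganglia (limma adjusted p = 0.038). In Hom ganglia it differed from Wt by −0.13 (limma adjusted p = 0.45), and Hom lay below Het without overlap, by −0.49 ± 0.09 (limma adjusted p = 0.0045). Adgrb2 rose by 1.06 ± 0.25 in Hom ganglia (limma adjusted p = 0.011). Dcc and Neo1, which encode the netrin receptors DCC and neogenin, differed by 0.56 and 0.15 in Het (limma adjusted p = 0.104 and 0.455) and by 0.12 and 0.09 in Hom ganglia (0.762 and 0.687), and neither passed.

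Among 13 intracellular partners kept, 4 rose and 1 fell in Hom ganglia at P0. Cask, which encodes a scaffold that binds the neurexin tail, fell by 0.78 ± 0.10 in Hom (limma adjusted p = 8.4e-05) and was the 1 partner gene ordered downwards without overlap, at 7.37 to 7.60 in Wt, 7.09 to 7.32 in Het and 6.56 to 6.76 in Hom arrays. Lin7a and Lin7b, which encode partners of CASK in the same complex, rose by 1.75 ± 0.20 (limma adjusted p = 2.6e-05) and by 1.30 ± 0.27 (limma adjusted p = 0.0054). The rise of Lin7b started from Wt values under log2 4, so its size is inexact. Dlg4, which encodes the postsynaptic scaffold PSD-95, rose by 0.71 ± 0.17 (limma adjusted p = 0.016). Of the 3 splicing factors, Khdrbs2 was the 1 called in Hom ganglia, with values of 4.87, 2.91, 4.16 and 2.97 against 2.45 to 2.61 in Wt. It exceeded log2 4 in Hom 9 and Hom 11 only and so was kept only through the group where it is high, which leaves its test without weight.

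Of 25 other adhesion organisers kept, 7 rose and 2 fell in Hom ganglia and 2 rose in Het ganglia at P0. Tenm3, which encodes a teneurin, was the 1 partner gene ordered upwards without overlap, at 9.58 to 9.88 in Wt, 10.01 to 10.32 in Het and 10.36 to 10.78 in Hom arrays. It rose by 0.49 ± 0.11 in Het (limma adjusted p = 0.022) and by 0.97 ± 0.11 in Hom (limma adjusted p = 3.0e-05). Tenm4 rose in Hom ganglia by 2.77 ± 0.48 (limma adjusted p = 0.0014). Tenm1 averaged 2.67 ± 0.66 in Wt and 5.43 ± 0.88 in Hom arrays (SD, n = 4 for each), and its call carries no weight, since 1 array outside Hom exceeded log2 4. Slitrk6 rose by 1.32 ± 0.30 in both Het (limma adjusted p = 0.025) and Hom ganglia (limma adjusted p = 0.011). It exceeded log2 4 only in these mutant arrays, through which alone it was kept, so its calls carry no weight and its sizes are inexact. Slitrk5 fell by 1.37 ± 0.28 (limma adjusted p = 0.0043) and Tenm2 fell by 0.52 ± 0.12 (limma adjusted p = 0.011).

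Hom 10 stood nearer to the Het arrays than the other Hom arrays did for 3 of these genes, picked after their values were seen. It read 6.09 for Tenm4 against 8.25 to 9.05 in the other Hom arrays, 6.42 for Nlgn1 against 7.39 to 8.58, and 3.01 for Lin7b against 3.89 to 4.71.

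At P18, 1 of the 60 partner genes rose in Het ganglia (1.67%, where limma called 0.261% of all genes). Tenm3 rose by 0.75 ± 0.14 (limma adjusted p = 0.040), with 9.41 and 9.33 in Het against 8.76, 8.68 and 8.42 in Wt arrays. Its call was lost without any 1 of the 5 P18 arrays and after quantile normalization, after median centring, with the P18 arrays fitted alone and by the methods' t-test, with an adjusted p between 0.00072 and 0.454 over the alternatives. The differences of Nlgn1, Nxph1, Clstn2, Lrrtm4 and Cask at P18 were not called.

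Between stages the partner genes were called in shares of 55% in Wt and 60% in Het, against 54.9% and 47.8% of all genes. In Wt 14 rose and 19 fell, and in Het ganglia 15 rose and 21 fell, with medians of −0.18 and −0.20 against 0.01 and −0.04 over all genes. Of those that rose, 4 of 14 in Wt and 3 of 15 in Het had a P0 mean under log2 4. Both comparisons run from P0 to P18. Among the neurexin ligands, Car11 rose by 1.89 ± 0.26 in Wt and by 1.53 ± 0.29 in Het (limma adjusted p = 1.7e-05 and 0.00046), and Clstn2 by 2.06 ± 0.19 and 1.91 ± 0.21 (limma adjusted p = 2.2e-07 and 2.4e-06), from P0 levels under log2 4. Nxph3 read 2.23 to 2.50 in all P0 arrays and 4.50 to 5.27 in the P18 arrays, through which alone it was kept, so no size or test is given. Tafa2, a secreted neurexin ligand, fell in both genotypes (−3.27 ± 0.29 in Wt and −3.03 ± 0.32 in Het, limma adjusted p = 1.5e-07 and 1.7e-06). Nxph1 was lower at P18 than at P0 in Het, but it was kept only through P0 mutant arrays, so no size or test is given.

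Of the 5 receptors of C1q-type proteins kept, 3 fell and 2 rose with age in Wt, and 3 fell and 1 rose in Het. Of all genes, 54.9% were called in Wt and 47.8% in Het. Adgrb3 fell in both genotypes, with differences of −0.91 ± 0.10 in Wt and −1.18 ± 0.11 in Het (limma adjusted p = 1.4e-06 and 4.0e-07). Neo1 fell with differences of −0.90 ± 0.11 and −0.95 ± 0.12 (5.0e-06 and 1.3e-05), and Dcc with differences of −0.56 ± 0.20 and −1.44 ± 0.22 (0.023 and 6.3e-05). Adgrb1 rose by 1.42 ± 0.20 in Wt, from a P0 mean under log2 4, and by 0.62 ± 0.22 in Het (limma adjusted p = 1.7e-05 and 0.031). Adgrb2 rose by 0.66 ± 0.27 in Wt (limma adjusted p = 0.046) and was not called in Het.

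The intracellular and adhesion genes moved in both directions with age. Lin7b rose by 3.39 ± 0.29 in Wt and by 2.23 ± 0.33 in Het (limma adjusted p = 1.3e-07 and 4.7e-05). Its P0 means were 2.67 in Wt and 2.80 in Het, under log2 4, so these sizes are inexact. Lin7a rose by 2.75 ± 0.21 and 2.34 ± 0.24 (limma adjusted p = 3.9e-08 and 1.1e-06), and Cask fell (−1.43 ± 0.11 and −1.03 ± 0.12, 3.0e-08 and 5.0e-06). Khdrbs1, a neurexin splicing factor, fell too (−1.09 ± 0.14 and −1.31 ± 0.16, limma adjusted p = 1.2e-05 and 8.4e-06). Of the adhesion organisers Tenm4 rose by 2.53 ± 0.52 in Wt and by 2.13 ± 0.59 in Het (limma adjusted p = 0.00072 and 0.0073), and Ptprd, a receptor tyrosine phosphatase, fell (−1.995 ± 0.16 and −1.80 ± 0.18, limma adjusted p = 5.1e-08 and 7.4e-07).

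The genes whose values over the 17 arrays were most like those of Cbln2 were found by Pearson's r, as a description over arrays that share their groups. They were Shox2, which encodes a homeobox transcription factor (r = 0.976), Lypd6 (0.959), Cnr1, which encodes the cannabinoid receptor CB1 (0.957), Nefl, the light neurofilament subunit (0.956), Necab2, a neuronal calcium-binding protein (0.953), and Bnc2, a zinc finger protein (0.948). The most opposite were Shisa9, which encodes an auxiliary protein of AMPA receptors (−0.966), Fst, which encodes follistatin (−0.959), and Crispld1 (−0.937). Over the 12 P0 arrays alone the coefficients ran from 0.920 to 0.971 for the first 6 and from −0.969 to −0.913 for the last 3.

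Shox2 read 2.60 to 3.08 in P0 Wt, 5.36 to 6.18 in P0 Het and 6.95 to 7.95 in P0 Hom arrays, and 3.97 and 3.79 in P18 Het against 2.17, 2.61 and 2.19 in P18 Wt arrays. Like Cbln2 it was ordered by genotype without overlap at P0, and both P18 Het arrays lay above the P18 Wt arrays. The choice of these genes used the P18 arrays, so their P18 tests are not independent of it. Shox2 exceeded log2 4 only in the P0 Het and Hom arrays, through which alone it was kept. Its P18 difference was 1.56 ± 0.31 (limma adjusted p = 0.047). All P18 arrays lay under log2 4, so its size is inexact and its call carries no weight. The call was lost without any 1 of the 3 P18 Wt arrays (limma adjusted p = 0.052 to 0.172). It was also lost with no filter, the stricter filter, quantile normalization, median centring, the P18 arrays fitted alone and the methods' t-test. With array weights the limma adjusted p was 0.0016. Without Het 4 the difference was 1.47, and without Het 5 it was 1.65.

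Cnr1 read 7.44 and 7.25 in P18 Het against 5.95 to 5.98 in P18 Wt arrays, a difference of 1.38 ± 0.28 that did not pass (limma adjusted p = 0.056). The P18 differences of Lypd6 (0.50 ± 0.21), Bnc2 (0.78 ± 0.40), Necab2 (0.15 ± 0.23) and Nefl (0.11 ± 0.13) did not pass either (limma adjusted p = 0.534, 0.702, 0.99976 and 0.991).

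**Figure D5:**
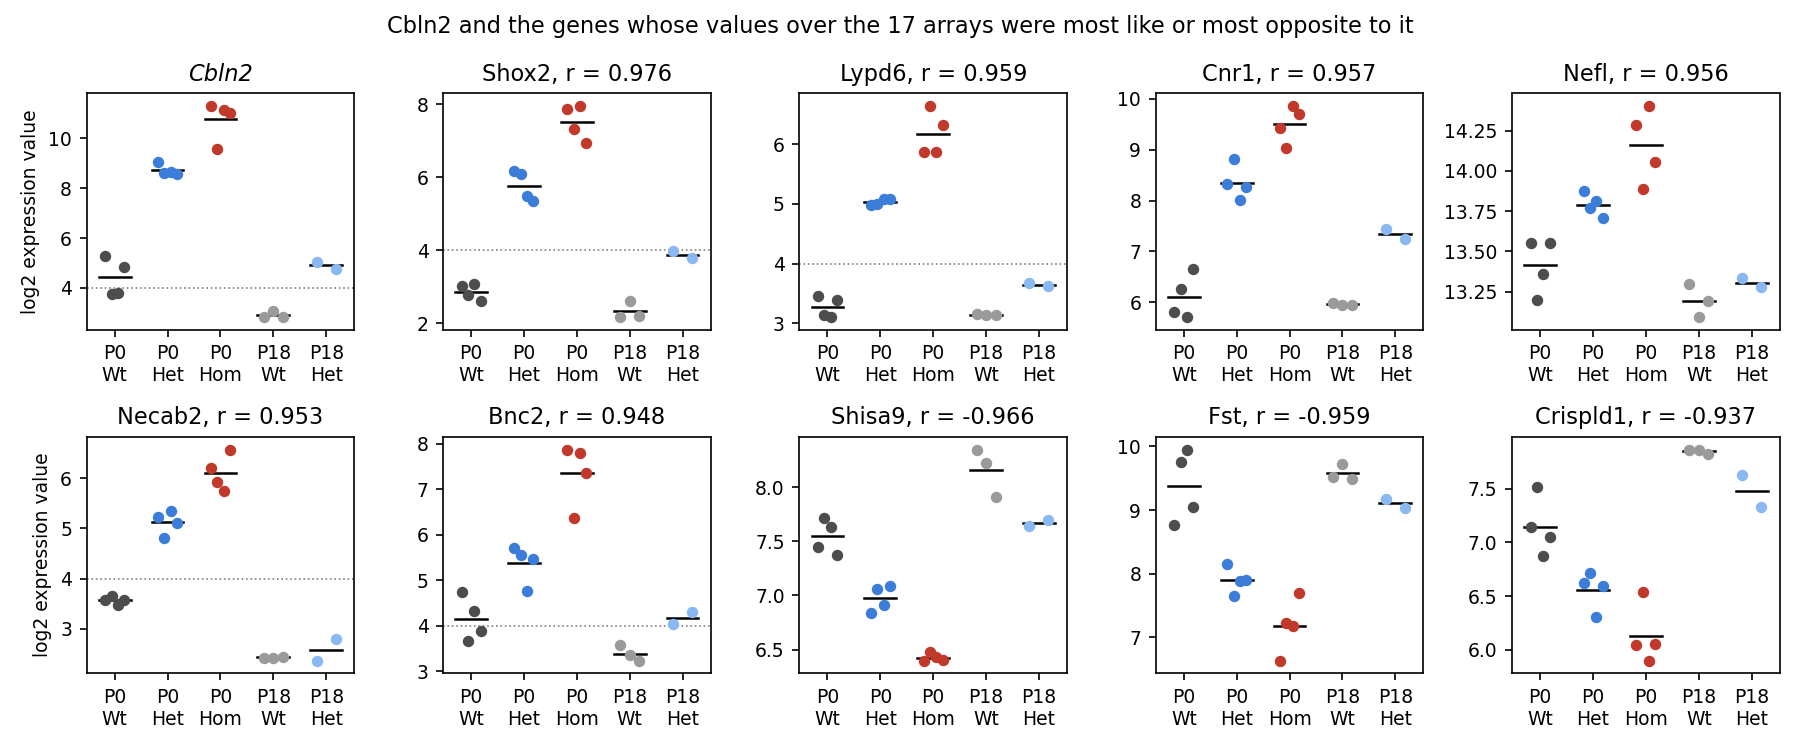
Log2 expression value (y axis, own scale for each panel) of Cbln2, of the 6 genes most like it and of the 3 most opposite to it in the 5 groups (x axis), with 1 point for each array, a black line at each group mean, a dotted line at log2 4 where the values reach near it, and Pearson's r over 17 arrays in the titles. Shox2 and Cnr1 follow the order P0 Wt, P0 Het and P0 Hom and lie higher in P18 Het than in P18 Wt arrays, and Shisa9 runs the other way.

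The genes most like Cbln1 were Slc39a3 (r = 0.901), Pigs (0.832) and Clstn3, which encodes a calsyntenin that binds neurexins (0.816). Clstn3 read 4.03 in P0 Hom 9 and 4.24 in Hom 12, the same Hom arrays in which Cbln1 exceeded log2 4, and 2.73 to 3.00 in the other 15 arrays. It was kept through those Hom arrays alone, so its coefficient carries no weight, and without Hom 12 the coefficient was 0.773. The genes most like Nrxn3 were Tnfrsf21 (0.714), Dusp1 (0.7003) and Snap91 (0.650), lower coefficients than those found for the other members.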

How the data were processed

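Pooled sympathetic ganglia were profiled on 17 arrays. The deposited values are log2 expression values, which the authors made with the GCRMA procedure and Brainarray annotations, with 1 probe set for each gene. Joint or separate normalization of the arrays is not given in the sources used here. GCRMA adjusts background by probe sequence and pulls absent genes to low values of little spread, so differences against a group near background are inexact.

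One linear model with the 5 groups was fitted to all 17 arrays with limma 3.58.1 in R 4.3.3 (empirical Bayes with trend and robust options), and p-values were adjusted by Benjamini-Hochberg over the 9973 probe sets with a log2 value over 4 in at least 2 arrays. A gene was called, and is said to have risen or fallen, at an adjusted p under 0.05. The script was tested on simulated data. For arrays, their number limits the precision. The summed level of a marker list is the log2 of the sum of its genes' linear values.

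Named were all 7 members, the 6 genes most like Cbln2 and the 3 most opposite, the 3 most like each other member kept, and, of each partner list, up to 3 of the largest called rises and falls for each comparison and the genes ordered by genotype at P0, of which the text gives the main ones. The members and lists were chosen with earlier results of these data known. Alternatives were other filters, variance models, scalings, array weights, sample sets and the methods' t-test. Counts of partner genes and the P18 values of Tenm3 and Shox2 under the alternatives, and a fit of the 6 arrays of the replicate block without the block, were added after seeing the data. Sequences were not used.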

Additional observations from a re-analysis of the deposited data

Results flagged for a closer look

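In 21 groups of 4 arrays, each of the 7 genes in each P0 genotype, 7 values stood apart from the other 3 of their group by Dixon's criterion, where chance gives about 1 in 20 groups. Cbln2 read 9.06 in P0 Het 5, with the next value at 8.66, and 9.59 in P0 Hom 10, with the next at 11.01. Nrxn2 read 4.69 in P0 Hom 12, with the next at 7.79, and Nrxn3 read 7.38 in P0 Hom 9, with the next at 6.67. The other 3 values lay under the background level of log2 4, where they carry no level. They were Cbln4 at 3.47 in P0 Wt 4 and at 2.41 in P0 Het 7, and Cbln3 at 2.36 in P0 Hom 12. The causes were not tested.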

How the results depend on the processing

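Of the values recomputed under the alternatives, 535 kept their direction and their side of the threshold or, for a value with no test, moved by less than the residual SD or, for a count, by at most 1.5 times, and 75 did not. Of the 535, 17 P0 differences of Nrxn2 and Nrxn3 turned sign, among them Nrxn2 in Hom against Wt (0.37) and against Het (0.41) without P0 Hom 12. Genes called for Het against Wt at P18 numbered 56 with no filter, 15 with the stricter filter, 401 with array weights and 1 by the methods' t-test, against 26, and from 5 to 29 with 1 array left out (5 without Het 4 or Het 5, 9 without Wt 1). The P18 difference of Cbln2 passed with array weights (1.99, adjusted p = 0.00079) and with the P18 arrays alone (1.99, adjusted p = 0.038). With 1 array left out it was 1.86 to 2.11 and did not pass (adjusted p 0.198 to 0.781). Without P0 Wt 1 and Wt 4, Cbln2 was higher by 4.96 in Het and by 6.98 in Hom than in Wt at P0, against 4.09 to 4.60 and 6.12 to 6.73 with 1 array left out. Some small differences that did not pass changed sign. Nrxn3 between stages in Wt was 0.046 after median centring, 0.095 without P0 Wt 1 and Wt 4, and −0.17 to 0.073 with 1 array left out. Nrxn2 at P18 was −0.26 to 0.025, and Cbln1 between stages in Het was −0.043 to 0.29, each with 1 array left out.

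Replicate numbers 1 to 3 are shared by P0 Wt and P18 Wt. The sample titles number the arrays of each stage on across genotypes and name no pairs. Deviations of same-numbered arrays correlated at −0.008, 0.074 and −0.122, which cannot settle whether arrays are paired, and the main fit used no pairing. With the replicate number as a block in those 6 arrays, Nrxn3 differed by 0.042 between stages, as it did in the same 6 arrays without a block, and Nrxn2 by −0.81 (adjusted p = 0.035, and 0.012 without the block).

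Partner genes that rose in P0 Het ganglia numbered 2 with no filter or the stricter filter and 11 with array weights, against 4, and in P0 Hom ganglia 12 with the stricter filter and 27 with array weights, against 18. Centring on the median moved the share of higher calls for Hom against Het at P0 from 56.0% to 32.6%, and the median difference of all genes there to −0.10. The causes were not tested. With 2 P18 Het arrays, leaving 1 out assumes that the other varies like the remaining groups.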
